A study of Mus musculus with 6 samples.

Results

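The neuronal cytoskeleton and growth cone genes Tubb3, Map2, Mapt, Dcx, Stmn2, Gap43, Dpysl3 and Add2 were followed in neural stem cell cultures that lack the DNA methyltransferase Dnmt3a. They were chosen by name: a gene spot belonged to a member if its gene name was on the list or if its transcript accession mapped to that symbol. This reached 16 probes on 25 spots for the 8 genes, of 28786 gene names on the array. All 8 were among the 18062 genes tested, for which the brightest probe had to exceed background clearly in 1 or both channels of 2 or more arrays out of 6.

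Each of the 6 arrays, with 2 colours, compared RNA of Dnmt3a-null (KO) with RNA of wild-type (WT) neural stem cells of the mouse subventricular zone, and asks what loss of Dnmt3a changes. On 2 arrays the cells were differentiating, after 2 days on a fresh adhesive substrate with mitogens and 3 days without, a protocol in which neurons and glia form spontaneously. On 4 arrays they were proliferating in serum-free medium with FGF2 and EGF at 10 ng/ml each. All cells came from the lateral ventricle walls at postnatal day 14 to 21 and had been passaged as adherent monolayers. KO RNA carried Cy3 on differentiating replicate 1 and Cy5 on replicate 2; in proliferating cells it carried Cy5 on replicates 1 and 3 and Cy3 on replicates 2 and 4. The sources used here do not give the allele, the way in which Dnmt3a was deleted, the strain, the sex or any pooling of animals. The labels call the arrays biological replicates without naming animals, so the p-values measure the spread between these arrays, whose small number limits the precision.

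Neurons build axons and dendrites on microtubules made of tubulin and bound by microtubule-associated proteins, and on a spectrin and actin skeleton under the membrane. The growth cone, the motile tip of the axon, turns guidance cues into microtubule and actin rearrangements. Newborn neurons of the subventricular zone express several of these genes as they leave the stem cell pool and migrate, and some of them are used as markers of young neurons.

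Among markers that check the labels, Nes and Sox2 were well above background in every channel, and the signal of Dnmt3a itself was lower in KO cells on each of the 6 arrays (log2 KO over WT -1.49 and -1.28 in differentiating and -1.11 to -0.64 in proliferating cells). Its probe may lie outside the deleted part. Depending on the channel, 52.3% to 59.1% of gene spots stood well above background. On proliferating replicates 3 and 4 the channels differed in sex-linked genes: Xist had log2 signals of 11.28 and 11.06 in KO and 12.69 and 13.34 in WT RNA there, and at most 6.08, not well above background, on the other 4 arrays. Ddx3y had 8.51 and 8.84 in KO RNA of these replicates, and was not well above background in their WT RNA. The proliferating values of the members are therefore also given without both. The proliferating arrays shared 1 slide and scan and the differentiating arrays another, so slide and condition cannot be told apart in any comparison between conditions.

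The 250 bases before the transcription start are shown for the 3 genes that fell together in differentiating KO cells (Tubb3, Map2, Add2) and for Dcx, since Dnmt3a methylates cytosines of CG dinucleotides and these genes differ widely in them. RefSeq promoter windows on build GRCm38.p6 were matched by symbol for 4 of the 8 genes. Sequences run 5′ to 3′ on the gene's strand, and capitals mark CG. The windows are chr8:123411303-123411552 (plus strand) for Tubb3, chr1:66175079-66175328 (plus strand) for Map2, chrX:143933220-143933469 (minus strand) for Dcx and chr6:86028431-86028680 (plus strand) for Add2.
Tubb3: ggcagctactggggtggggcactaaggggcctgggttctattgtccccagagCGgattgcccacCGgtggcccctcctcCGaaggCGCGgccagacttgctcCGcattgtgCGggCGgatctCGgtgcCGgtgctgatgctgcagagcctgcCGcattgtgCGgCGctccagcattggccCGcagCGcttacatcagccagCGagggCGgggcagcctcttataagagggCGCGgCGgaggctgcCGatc
Map2: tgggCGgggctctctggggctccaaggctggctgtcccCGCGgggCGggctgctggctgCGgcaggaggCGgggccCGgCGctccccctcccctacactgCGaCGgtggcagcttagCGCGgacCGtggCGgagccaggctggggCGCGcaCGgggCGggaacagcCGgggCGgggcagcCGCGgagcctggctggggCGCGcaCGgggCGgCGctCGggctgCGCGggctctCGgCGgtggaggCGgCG
Dcx: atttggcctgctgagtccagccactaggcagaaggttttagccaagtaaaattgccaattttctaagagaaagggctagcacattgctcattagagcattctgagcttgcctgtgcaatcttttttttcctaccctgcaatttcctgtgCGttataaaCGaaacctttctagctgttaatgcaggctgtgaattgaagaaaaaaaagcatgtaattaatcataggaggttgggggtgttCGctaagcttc
Add2: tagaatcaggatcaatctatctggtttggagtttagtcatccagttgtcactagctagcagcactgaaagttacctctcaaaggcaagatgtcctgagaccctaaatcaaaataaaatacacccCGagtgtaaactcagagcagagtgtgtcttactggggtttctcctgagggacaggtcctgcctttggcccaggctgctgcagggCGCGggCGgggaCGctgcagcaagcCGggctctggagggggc
Map2 has 34 CG dinucleotides, a number that 3.53% of all 32841 windows of this length reach. Tubb3 has 21, which 16.4% of windows reach. Add2 has 6, the median of all windows, and 50.4% reach it. Dcx has 3 in this window and also 3 in the window of its second start, and 71.0% of windows reach that. The E-box motif CANNTG, whose reverse complement is the same motif, occurs in 66.2% of all windows; of these, the Add2 window has 1 match, and the Tubb3, Map2 and both Dcx windows have none. The 3 genes that fell in differentiating KO cells thus had from 6 to 34 CG in their windows. DNA methylation was not measured.

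**Figure D1:**
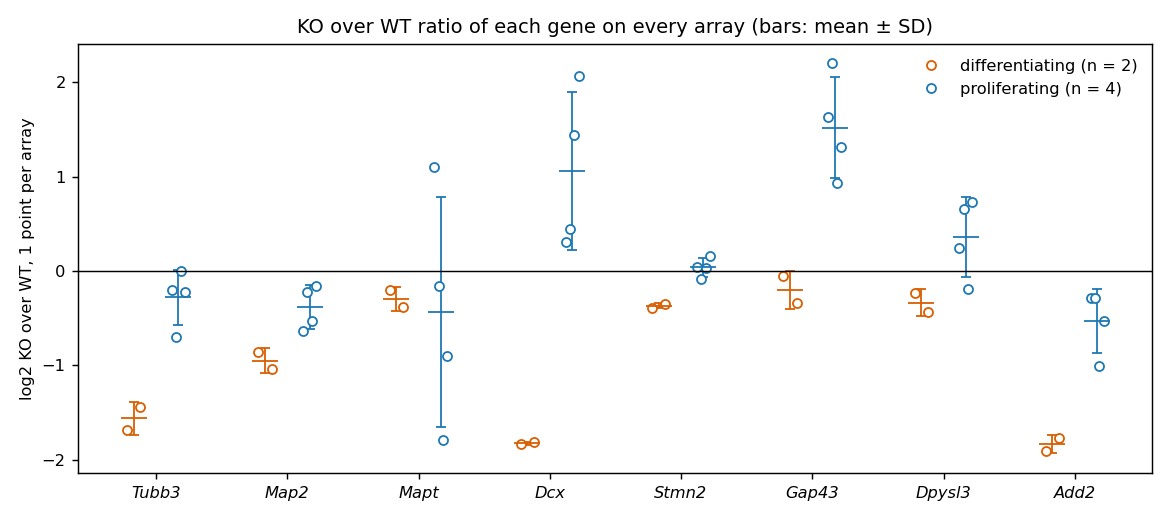
Log2 KO over WT ratio of the 8 genes (vertical axis, 1 point per array; bars are mean ± SD) in differentiating (orange, n = 2) and proliferating cells (blue, n = 4). Tubb3, Dcx and Add2 lie between -1.90 and -1.44 in differentiating cells, and Gap43 and Dcx are positive on all 4 proliferating arrays.

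At the tested probes, the mean signal of all 8 genes was lower in KO than in WT differentiating cells. For Stmn2 this direction was partly fixed, since it passed the filter only through its WT differentiating channels. Tubb3, Map2 and Add2 fell. These are 3 of 8 members, where 0.902% of all 18062 genes tested passed as lower, 2.18% as higher and 3.08% in either direction (limma, Benjamini-Hochberg adjusted p under 0.05). The 8 genes were chosen with earlier results of these data known, so this contrast is a description and no test of the list. The median log2 KO over WT ratio of the 8 was -0.66, against -0.01 for all genes, of which 51.7% were negative. RNA came from whole cultures, so fewer cells of a type and less RNA per cell cannot be told apart.

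Tubb3 encodes class III beta-tubulin, the beta-tubulin isotype of neurons. Its probe (chr8:122062871-122062930, plus strand, build mm7, the build of all probe positions) was spotted 10 times on each array. The log2 signals were 10.24 and 10.41 in KO differentiating cells, against 11.93 and 11.84 in WT differentiating cells. Both KO cultures lay below both WT cultures. Such separation with 2 cultures per genotype is weak, here and for the genes below. Its share among all genes was not counted. The log2 KO over WT ratio was -1.56 ± 0.17 (SD, n = 2), which is 2.95-fold lower (limma adjusted p = 0.0147). Within an array the 10 spots had ratios with an SD of 0.03 on both differentiating arrays, less than the SD of 0.17 between the ratios of the arrays, -1.68 and -1.44.

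Map2 binds and stabilises microtubules of dendrites. At its brightest probe (chr1:66681917-66681976, plus strand), the log2 signals were 12.17 and 12.52 in KO differentiating cells, against 13.03 and 13.56 in WT differentiating cells, with no overlap. The ratio was -0.95 ± 0.13 (SD, n = 2), 1.93-fold lower (adjusted p = 0.0159). The array names this probe by the older symbol Mtap2, and it was reached through its transcript accession. Another 3 probes carry that older symbol with other accessions and were not reached by the rule. They were dimmer, with mean log2 ratios of -0.22, -0.44 and -0.28 in differentiating cells. In this order they were well above background in 12, 12 and 5 of 12 channels, so clearly detected probes also had smaller ratios. All 4 probes thus had negative mean ratios, of unequal size.

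Add2 encodes beta-adducin, which joins spectrin to actin filament ends. At the brightest of its 4 probes (chr6:86199334-86199393, plus strand), the log2 signals were 9.78 and 9.34 in KO differentiating cells, against 11.68 and 11.10 in WT differentiating cells. The groups did not overlap, and the log2 ratio of -1.83 ± 0.10 (SD, n = 2) was 3.56-fold lower (adjusted p = 0.0177). The other probes had ratios of -0.86, -0.59 and -0.25 in differentiating cells, smaller the dimmer the probe. In this order they were well above background in 12, 10 and 4 of 12 channels, so a fully detected probe also had a smaller ratio. With the mean of all 4 probes in place of the brightest, the ratio was -0.88 (adjusted p = 0.0447).

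Dcx encodes doublecortin, a microtubule-binding protein of migrating neuroblasts. At its brightest probe (chrX:138520631-138520690, minus strand), the log2 signals were 10.73 and 10.57 in KO differentiating cells, against 12.57 and 12.39 in WT differentiating cells. The groups did not overlap, and the ratios of -1.84 and -1.82 were nearly equal (mean 3.55-fold lower). The fit takes 1 spread per gene over both conditions, and the adjusted p was 0.100. It passed in 3 of 16 alternatives, with the differentiating arrays fitted alone (adjusted p = 0.000475), with array weights (0.0260) and without proliferating replicates 3 and 4 (0.00395). In these settings 1586, 1711 and 1060 of all genes passed, against 557 in the main fit. In the others the adjusted p was 0.0645 to 0.861, among them 0.182 with Agilent's processed signals. The other 2 probes were well above background in 3 and 0 of 12 channels, and with the mean of all 3 probes the ratio was -0.76 (adjusted p = 0.0908).

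Stmn2, a stathmin that binds tubulin dimers in growing axons, was near the detection limit. At its tested probe (chr3:8567696-8567755, plus strand), the log2 signals were 6.51 and 6.36 in KO differentiating cells, against 6.90 and 6.70 in WT differentiating cells. Only the WT differentiating channels were well above background, and Stmn2 passed the filter through them alone. Its lower signal in KO cells was thus partly fixed by the filter and supports nothing. The measured mean was 1.29-fold lower in KO cells and did not pass (adjusted p = 0.131). With Agilent's processed signals in place of the background correction used here, the log2 ratio was -1.34 (adjusted p = 0.0167), and it was -1.34 in the authors' value table (adjusted p = 0.0182). The authors' table holds Agilent's ratios, so the values of -1.34 are not independent of each other. The size of the difference thus depends on the background correction and normalization.

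The other 3 genes differed by less between genotypes, and their KO and WT ranges overlapped. Mapt encodes tau, the microtubule-associated protein of axons, and its log2 ratios at the tested probe (chr11:104439072-104439131, plus strand) were -0.20 and -0.38 in differentiating cells (adjusted p = 0.889). Its other 2 probes had mean ratios of -0.26 and 0.21 there, so the probes differed in sign. Gap43, a membrane-bound growth cone protein (probe ends at chr16:42052862-42101027, minus strand), had ratios of -0.05 and -0.34 (adjusted p = 0.781). Dpysl3, a collapsin response mediator protein that links guidance cues to the cytoskeleton (chromosome 18), had ratios of -0.23 and -0.44 (adjusted p = 0.325). The calls of Tubb3, Map2 and Add2 rest on both differentiating arrays. Without either of them 1 array is left in that group, so only their ratios are given, from -2.02 to -0.84.

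**Figure D2:**
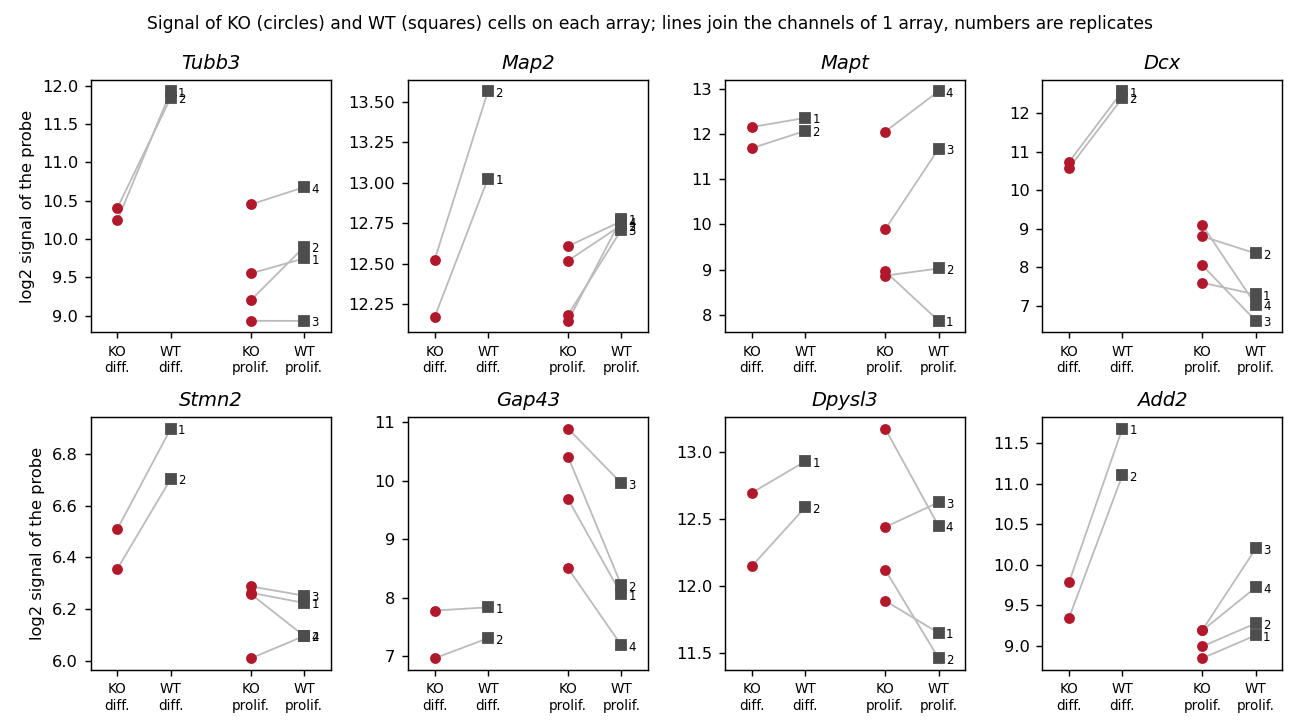
Log2 signal of the tested probe of each gene in KO (red circles) and WT cells (grey squares), with lines joining the channels of 1 array and replicate numbers beside the WT points. KO lies below WT without overlap in differentiating cells for Tubb3, Map2, Dcx, Stmn2 and Add2. With so few arrays such separation is weak, and its share among all genes was not counted. Stmn2 passed the filter only through its WT channels there. Mapt WT signal in proliferating cells runs from 7.86 to 12.95.

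In proliferating cells the same genes split in direction. Gap43 rose in KO cells, the only one of 8 members to pass, where 0.952% of all 18062 genes passed, 0.615% as higher and 0.338% as lower. Of the 8 mean ratios 4 were positive and 4 negative, and their median was -0.12, against -0.01 for all genes.

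Gap43 had log2 signals of 9.69, 10.41, 10.89 and 8.50 in KO proliferating cells (replicates 1 to 4), against 8.06, 8.21, 9.95 and 7.19 in WT proliferating cells. The ranges overlapped, since replicate 3 was high and replicate 4 low in both channels, but KO was above WT on each array. The log2 ratio of 1.52 ± 0.53 (SD, n = 4) was 2.87-fold higher (adjusted p = 0.0341). Without proliferating replicates 3 and 4 it was 1.91 (adjusted p = 0.0108). With any 1 of the 6 arrays left out it was between 1.32 and 1.69 and did not pass (adjusted p = 0.0571 to 0.135), and with the proliferating arrays fitted alone the adjusted p was 0.142.

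Dcx was higher in KO cells on all 4 proliferating arrays, with a wide spread. Its log2 signals were 7.60, 8.80, 8.05 and 9.09 in KO cells, against 7.30, 8.36, 6.61 and 7.03 in WT cells, where 3 of 4 channels were well above background. The ratios were 0.30 and 0.44 on replicates 1 and 2, and 1.44 and 2.06 on replicates 3 and 4, the arrays with unequal sex-linked genes; Dcx itself is X-linked. The mean of 1.06 ± 0.84 (SD, n = 4) had an adjusted p of 0.191, and without replicates 3 and 4 the ratio was 0.37 (adjusted p = 0.319).

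At its brightest probe Map2 had log2 signals of 12.15, 12.52, 12.18 and 12.61 in KO proliferating cells, against 12.78, 12.74, 12.71 and 12.76 in WT proliferating cells. All 4 KO values lay below all 4 WT values, and the ratio was -0.38 ± 0.23 (SD, n = 4, adjusted p = 0.0796). The probes named Mtap2 had mean ratios of -0.13, -0.25 and -0.07, the first with 0.14 on replicate 1 and the last with 0.20 and 0.09 on replicates 2 and 4. At its brightest probe Add2 was lower on each array, with ratios of -0.28, -0.29, -1.01 and -0.53 (adjusted p = 0.159). Its other probes had mean ratios of -0.31, -0.12 and -0.07. The first of these had 0.30 on replicate 2, and the next 0.17 and 0.05 on replicates 2 and 4. Tubb3 had ratios of -0.20, -0.69, 0.00 and -0.23 (adjusted p = 0.261), and its KO and WT ranges overlapped. None of these 3 passed, and without replicates 3 and 4 the ratios were -0.42 for Map2, -0.28 for Add2 and -0.45 for Tubb3 (adjusted p = 0.263, 0.452 and 0.243).

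Mapt varied more between proliferating cultures than between genotypes. Its log2 signals were 8.96, 8.86, 9.89 and 12.05 in KO cells, against 7.86, 9.02, 11.67 and 12.95 in WT cells, so that replicates 3 and 4 were high and replicates 1 and 2 low in both channels. The ratios were 1.099, -0.16, -1.79 and -0.90, a mean of -0.44 ± 1.22 (SD, n = 4; adjusted p = 0.715). Its 3 probes, between positions 104427278 and 104441097 of chromosome 11, had ratios of 1.099, 1.04 and 0.75 on replicate 1, -0.16, 0.01 and 0.09 on replicate 2, -1.79, -1.89 and -1.82 on replicate 3 and -0.90, -0.68 and -0.66 on replicate 4. They shared their sign on replicates 1, 3 and 4. The direction rested on single cultures: the ratio was 0.47 without replicates 3 and 4, and 0.16 without replicate 3.

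Dpysl3 had ratios of 0.24, 0.66, -0.19 and 0.73 in proliferating cells, with overlapping ranges (adjusted p = 0.191), and 0.45 without replicates 3 and 4 (adjusted p = 0.232). Stmn2 was not well above background in any proliferating channel, so no fold is given for it.

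**Figure D3:**
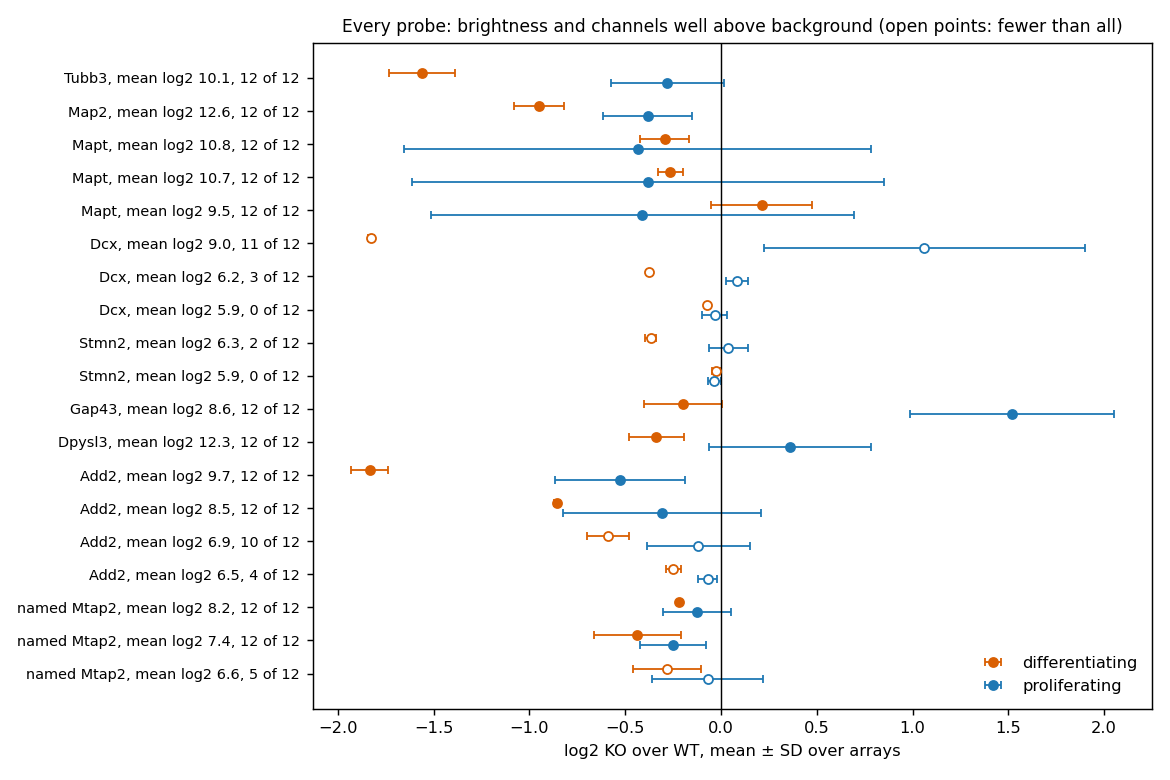
Log2 KO over WT ratio (horizontal axis, mean ± SD over arrays) of all 16 probes of the 8 genes and of 3 probes named by the older symbol Mtap2, with each probe's mean log2 intensity and the number of channels well above background. The ratios of Add2 in differentiating cells run from -1.83 at the brightest probe to -0.25 at the dimmest.

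The KO effect in differentiating cells was set against that in proliferating cells by the difference of the log2 ratios, to ask whether it changes with mitogen withdrawal. No member passed, where 0.0498% of all genes did (0.0332% as higher and 0.0166% as lower), although 7 of 8 had an unadjusted p under 0.05, as did 12.1% of all genes. The difference was -2.89 for Dcx (adjusted p = 0.155), -1.72 for Gap43 (adjusted p = 0.151), -1.31 for Add2 (adjusted p = 0.151) and -1.28 for Tubb3 (adjusted p = 0.0938). Without proliferating replicates 3 and 4 it was -2.20 for Dcx (adjusted p = 0.0429) and -2.11 for Gap43 (adjusted p = 0.0457). Tubb3 passed with array weights (-1.31, adjusted p = 0.0402). Over all genes 37 passed without these replicates and 124 with array weights, against 9 in the main fit. Mapt was the only member with a positive difference, 0.14 (adjusted p = 0.974), and it was -0.76 without proliferating replicates 3 and 4.

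Mitogen withdrawal was examined within each genotype, from the signals of differentiating over those of proliferating cells in limma's separate-channel fit. In KO cells Dcx rose and Gap43 fell, 2 of 8 members, where 14.4% of 18050 genes passed, 7.7% as higher and 6.74% as lower. In WT cells Tubb3, Dcx and Add2 rose, where 14% of genes passed, 7.42% as higher and 6.59% as lower. Stmn2 passed too, but it entered the set of tested genes only through its WT differentiating channels, so its rise there was partly fixed by the filter and supports nothing. The median log2 change of the 8 was 0.37 in KO and 1.26 in WT cells, against 0.00 and 0.01 for all genes. These comparisons use the same RNA as those of KO with WT cells, and a difference between their values is the difference of KO effects given before, which no member passed.

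Dcx rose with withdrawal by 2.27 on the log2 scale in KO cells (4.81-fold, adjusted p = 0.0453) and by 5.15 in WT cells (35.6-fold, adjusted p = 0.00212). In WT proliferating cells 1 of 4 channels was not well above background, and the WT change was 6.19 with Agilent's processed signals and 2.19 with the mean of all probes (adjusted p = 0.00323 and 0.00152). The KO change was 2.51 and 1.07 in these alternatives (adjusted p = 0.107 and 0.0215). Its differentiating signals lay above all proliferating signals in both genotypes, and its 4 group means ran from WT differentiating through KO differentiating and KO proliferating to WT proliferating cells, with overlap only between the proliferating groups. Tubb3 changed by 0.79 in KO cells (adjusted p = 0.190) and rose by 2.07 in WT cells (4.20-fold, adjusted p = 0.0103). The KO differentiating range of Tubb3, 10.24 to 10.41, overlapped the WT proliferating range, 8.93 to 10.68.

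Add2 changed by 0.51 in KO cells (adjusted p = 0.308) and rose by 1.81 in WT cells (3.51-fold, adjusted p = 0.00844). The KO differentiating mean, 9.56 ± 0.31 (SD, n = 2), was close to the WT proliferating mean, 9.58 ± 0.48 (SD, n = 4). Stmn2, not well above background in proliferating cells, had a measured mean 1.55-fold higher in WT differentiating cells (adjusted p = 0.0223), the group through which it passed the filter. The log2 change was 2.59 with Agilent's processed signals (adjusted p = 0.000397) and 0.31 with the mean of its probes (adjusted p = 0.109). In KO cells it was not well above background in either condition.

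Gap43 fell with withdrawal in KO cells, with a log2 change of -2.50 (5.65-fold, adjusted p = 0.0333). In WT cells the change was -0.78 (adjusted p = 0.452). The group means were 7.37 ± 0.58 in KO differentiating and 9.87 ± 1.04 in KO proliferating cells, and 7.57 ± 0.37 in WT differentiating and 8.35 ± 1.16 in WT proliferating cells (SD, n = 2 and 4), and KO proliferating cells alone stood apart from both differentiating groups. Gap43 was the only member whose mean signal was highest in KO proliferating cells.

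Map2 changed by -0.02 in KO cells (adjusted p = 0.952) and by 0.55 in WT cells (adjusted p = 0.0582). Mapt changed by 1.98 in KO cells (adjusted p = 0.313) and by 1.84 in WT cells (adjusted p = 0.359), with standard errors of 1.28. Dpysl3 changed by 0.01 in KO cells (adjusted p = 0.980) and by 0.71 in WT cells (adjusted p = 0.192). The ranges of groups that are neighbours in the order of means overlapped throughout for Mapt and Dpysl3. The withdrawal calls rest on few cultures. Over all genes, 646, 681 and 993 passed in WT cells without proliferating replicate 1, 2 or 3, against 2528 with all arrays. In KO cells 420, 606 and 880 passed then, against 2607. With 1 array left out, 0 to 3 members passed in KO cells and 0 to 4 in WT cells; without differentiating replicate 1 none passed in WT cells, where the adjusted p of Dcx was 0.0863. In WT cells Tubb3 did not pass without proliferating replicate 1 or either differentiating array (adjusted p = 0.0575 to 0.147), Add2 without proliferating replicate 1 or 2 or either differentiating array (0.0502 to 0.181), and Stmn2 without proliferating replicate 1, 2 or 3 (0.0818 to 0.110). In KO cells none passed when any 1 array other than proliferating replicate 4 was left out (Dcx 0.0897 to 0.314 and Gap43 0.0589 to 0.299). Without proliferating replicates 3 and 4 together, Dcx and Gap43 still passed in KO cells (adjusted p = 0.0243 and 0.0133), and in WT cells Tubb3, Dcx, Add2, Mapt (3.76, adjusted p = 0.0434) and Dpysl3 (1.20, adjusted p = 0.0496) passed, while Stmn2 did not (adjusted p = 0.157).

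**Figure D4:**
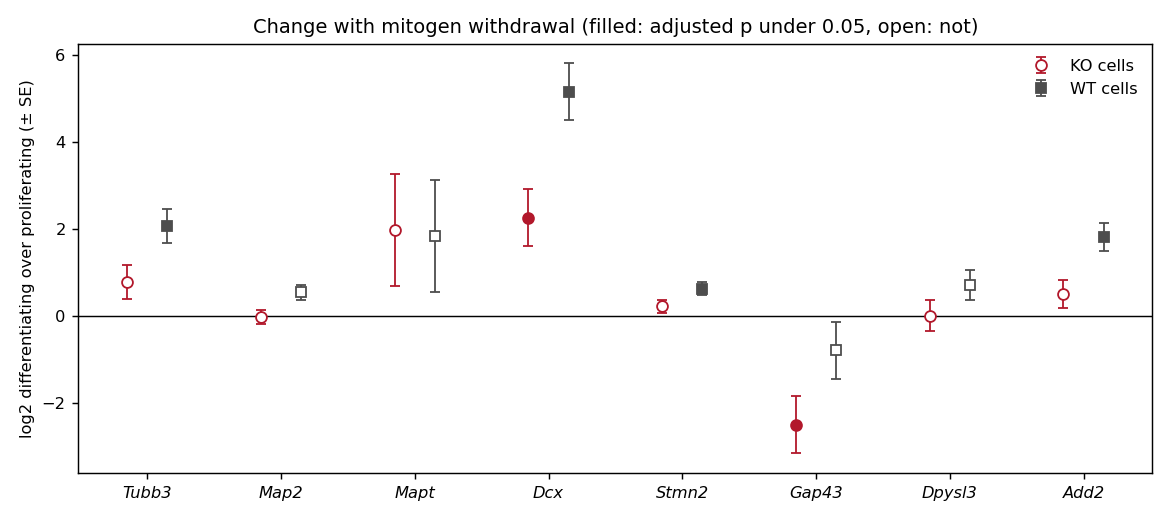
Log2 change from mitogen withdrawal, differentiating over proliferating (± SE), in KO (red circles) and WT cells (grey squares); filled symbols passed an adjusted p of 0.05. Dcx rose by 2.27 in KO and 5.15 in WT cells, and Gap43 fell in KO cells, at -2.50.

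Few genes of the wider families passed in the comparison of KO with WT, and the counts per list stand beside 3.08% of all genes in differentiating and 0.952% in proliferating cells. Of 13 tubulins tested besides Tubb3 and of 24 microtubule-associated proteins and stathmins, none passed in either condition, and their median log2 ratios in differentiating cells were 0.08 and 0.03. The tubulin of smallest p was Tubb6 in differentiating (0.98, adjusted p = 0.143) and Tuba1c in proliferating cells (0.82, adjusted p = 0.0821). Tppp3, a tubulin polymerisation-promoting protein, had 2.08 in differentiating (adjusted p = 0.0635) and Stmn3 -0.60 in proliferating cells (adjusted p = 0.132).

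Of 30 collapsin response mediator and growth cone proteins, 2 fell and 1 rose in differentiating KO cells. Crmp1, a relative of Dpysl3, fell with ratios of -0.88 and -0.77 (adjusted p = 0.0493), and Gprin1, a G protein-regulated inducer of neurite outgrowth, with -0.71 and -0.78 (adjusted p = 0.0489). Pfn1, the actin monomer-binding protein profilin, rose with 0.56 and 0.48 (adjusted p = 0.0486). The list's median was 0.07, and in proliferating cells none passed, Dpysl4 having the smallest p at 1.76 (adjusted p = 0.0585).

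Of 17 kinesin and dynein genes of axonal transport, Klc1, a kinesin light chain, fell in differentiating KO cells with ratios of -1.27 and -0.99 (adjusted p = 0.0240), and none passed in proliferating cells. Of 15 other adducins, spectrins, ankyrins and their partners, Ank3, which encodes ankyrin-G of the axon initial segment, rose in proliferating KO cells with ratios of 1.67, 2.21, 2.49 and 1.72 (adjusted p = 0.0197). In differentiating cells Ank3 had 0.26 and 1.17 (adjusted p = 0.240). None of 4 neurofilament and related genes passed; Ina, alpha-internexin, had -0.78 in differentiating (adjusted p = 0.0968) and Nefm 0.88 in proliferating cells (adjusted p = 0.0706). None of 5 glial and progenitor cytoskeleton genes passed, Nes having -0.61 in differentiating cells (adjusted p = 0.0635).

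**Figure D5:**
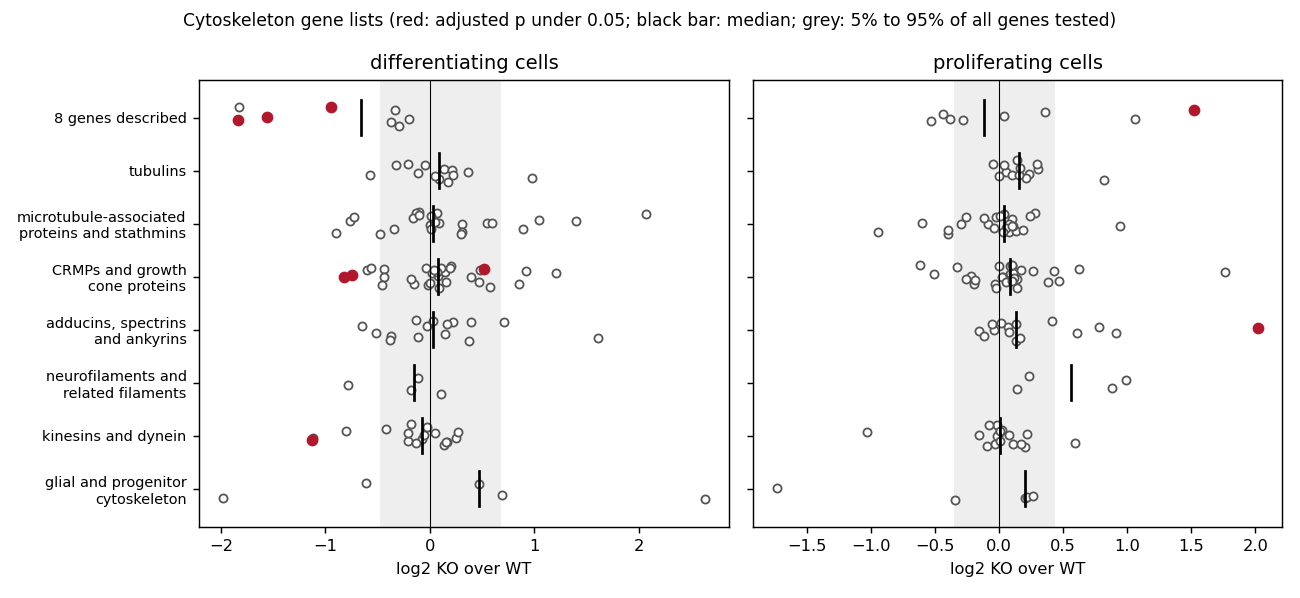
Log2 KO over WT of the 8 genes and of 7 lists of other cytoskeleton genes in differentiating (left) and proliferating cells (right), 1 point per gene, red where the adjusted p was under 0.05, with the median as a black bar and the range from the 0.05 to the 0.95 quantile of all genes tested in grey. In differentiating cells the median of the 8 genes is -0.66, and those of the 7 lists lie between -0.15 and 0.47.

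With withdrawal, 14.4% of all genes passed in KO and 14% in WT cells, and the counts in the following lists are given as a description beside these shares. Tuba1c fell with log2 changes of -4.38 in KO (adjusted p = 0.00201) and -3.52 in WT cells (adjusted p = 0.00417). Tubb6 fell with -2.40 in WT cells (adjusted p = 0.0263) and changed by -1.71 in KO cells (adjusted p = 0.0765). Tubb2b, a tubulin of developing brain, rose by 1.52 in WT cells (adjusted p = 0.00681) and changed by 0.79 in KO cells (adjusted p = 0.0669). Among microtubule-associated proteins 5 rose and 1 fell in KO cells, and 4 rose and 1 fell in WT cells. Dclk1, the doublecortin-like kinase, rose by 1.42 in KO (adjusted p = 0.0107) and by 1.03 in WT cells (adjusted p = 0.0333). Of the kinesin and dynein genes 1 rose in KO cells, Kif1a by 0.93 (adjusted p = 0.0115), and 4 rose in WT cells, among them Kif5c by 2.91 (adjusted p = 0.0109), Klc1 by 1.32 (adjusted p = 0.00668) and Kif1a by 1.05 (adjusted p = 0.00698).

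Of the growth cone proteins 1 rose and 2 fell in KO cells, and 3 rose and 3 fell in WT cells. Shtn1, the clutch protein shootin, rose by 2.36 in KO (adjusted p = 0.00407) and by 2.34 in WT cells (adjusted p = 0.00338). Of the adducins, spectrins and ankyrins 2 rose and 1 fell in KO cells, and 3 rose and 1 fell in WT cells. Ank1 rose by 1.08 in KO (adjusted p = 0.00372) and by 1.07 in WT cells (adjusted p = 0.00299), and Sptan1, alpha-spectrin, fell with -1.22 in KO (adjusted p = 0.00492) and -0.95 in WT cells (adjusted p = 0.0113). Ina rose by 1.34 in WT cells (adjusted p = 0.0158) and no neurofilament gene passed in KO cells. Nes, the intermediate filament of progenitors, fell with -3.02 in KO (adjusted p = 0.00189) and -2.19 in WT cells (adjusted p = 0.00542). Gfap, that of astrocytes, rose by 4.78 in KO cells (adjusted p = 0.0381) and changed by 2.35 in WT cells (adjusted p = 0.251). The difference of its KO effects did not pass (2.43, adjusted p = 0.309).

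In differentiating cells 0.902% of all genes passed as lower and 2.18% as higher, and in proliferating cells 0.338% and 0.615%. Markers of cell types moved between KO and WT differentiating cells together with Tubb3, Map2 and Add2. Of 15 markers of neurons and neuroblasts other than these genes, 5 fell (Rbfox3, Snap25, Syt1, Slc32a1 and Sp8) and 13 were negative, with summed signals of 6201 to 7643 in KO against 12644 to 13971 in WT differentiating cells. Gad1, Gad2 and Dlx2 were not well above background on either array in KO differentiating cells. In proliferating cells 1 of the 15, Sp8, fell, and the summed signals overlapped, with 5909 to 10522 in KO and 7831 to 10368 in WT cells. Beside the rise of Gap43 in proliferating cells, 3 of 14 oligodendroglial markers rose (Sox10, Gpr17 and Nkx2-2) and 13 were positive, with overlapping sums of 65485 to 151379 in KO and 51744 to 76223 in WT cells. None of 10 astroglial markers passed there. Of these, 7 were positive and 3 negative: Slc1a2 (-0.07), Slc1a3 (-0.33) and Aldoc (-0.54). Their sums did not overlap, with 105414 to 146226 in KO and 52340 to 86297 in WT cells. In every list the brightest probes weigh most in a sum, so sums do not show a shift of all markers. In differentiating cells 5 of the oligodendroglial markers rose, with sums of 175296 to 217521 in KO against 66329 to 85784 in WT cells. Of the 14, 11 were positive and 3 negative: Olig1 (-0.34), Olig2 (-0.70) and Pdgfra (-0.38). Of the markers of dividing cells 6 of 6 rose there, with sums of 9385 to 11522 in KO against 2631 to 2996 in WT cells. Of the astroglial markers 3 rose, and their sums overlapped, with 186640 to 258271 in KO and 163966 to 195662 in WT differentiating cells. Of 5 ependymal markers 3 rose (Foxj1, Dnah9 and Mlf1), with sums of 2657 to 4372 in KO and 1629 to 1645 in WT differentiating cells. Of 9 stem and progenitor markers 1 rose there, Prom1, and 6 were negative. Their sums were 106542 to 117151 in KO and 137513 to 165432 in WT differentiating cells. Of 6 microglial markers 1 was measured well enough to be tested, and it did not pass. The part of these shifts in the results for the 8 genes was not tested.

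The array profiles of the 8 genes were compared with those of all other genes by the root mean square (RMS) difference of the 6 log2 KO over WT ratios. Genes with small ratios everywhere have many near neighbours: 7475 of 18041 other genes lay within 0.3 of Stmn2, against 114 for Dpysl3, 35 for Map2, 9 for Tubb3, 3 for Add2 and 0 for Mapt, Dcx and Gap43. Of the 3 nearest to each member, 7 of 24 carried only a transcript accession and are left unnamed. The others nearest to Tubb3 were Nat8f5 (0.24) and Polr2f (0.25), a subunit of RNA polymerases. Nearest to Map2 was Samd14 (0.13), and to Add2 Adamts5 (0.25), an extracellular protease.

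Nearest to Dcx were Plppr1 (0.37) and Plppr5 (0.48), members of the plasticity-related protein family of neurons, and Cntn1 (0.38), an axonal adhesion protein. Plppr1 had ratios of -1.73 and -1.85 in differentiating cells and from -0.02 to 1.59 in proliferating cells. Nearest to Gap43 were Rab26 (0.45), a small GTPase of secretory vesicles, Scube1 (0.49) and Slc1a1 (0.57), a glutamate transporter. Rab26 had ratios of 0.32 and 0.20 in differentiating and 1.20 to 2.45 in proliferating cells. Among the genes near Mapt was Adgrv1 (0.39), an adhesion receptor. Adgrb1 (0.14), also an adhesion receptor, Tsen54 (0.19) and Arhgap31 (0.19) were nearest to Dpysl3, and Oacyl (0.06) and Trim32 (0.07) to Stmn2. Among the 8 members themselves, Stmn2 and Dpysl3 were nearest at 0.41, Tubb3 and Add2 were 0.49 apart, and Mapt and Dcx were farthest at 2.04. The distances of Stmn2 rest mostly on ratios of signals not well above background.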

How the data were processed

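RNA of KO and WT cells was compared on 6 arrays with 2 colours, 4 of proliferating and 2 of differentiating cells, grouped by the labels. Spot intensity values (mean signal and local background of each dye) were deposited as output of Agilent Feature Extraction 9.5.1.1 for array design 014868, per the file headers. Per the file headers, the processed intensity values were background-subtracted and dye-normalized, and Cy5 is the numerator of the log10 ratio. The value table of the authors holds these log10 ratios with KO as the numerator throughout (correlations of 1 or -1, differences up to 5e-06, column medians 0), and the sources used here do not say whether more centring was applied.

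Mean signals were corrected with limma 3.58.1 in R 4.3.3 (normexp, offset 50) and normalized by loess within arrays, with control and outlier-marked spots left out. Repeat spots were averaged and each gene was represented by its brightest probe. Log2 ratios were fitted with lmFit and eBayes, using a dye term and a coefficient for either condition (3 residual and 2.56 prior degrees of freedom). Withdrawal came from the separate-channel fit after Aquantile (intraspot correlation 0.763, 18050 genes). Signals are on that Aquantile log2 scale, and levels of different genes are not compared; probes of 1 gene are ordered by their brightness. Adjusted p-values are Benjamini-Hochberg values over all genes tested, 2-sided. To seek a bound for Stmn2, a dim signal was replaced on each array by the lowest signal that counted as well above background, where that was higher. This left the 1.29-fold difference as measured and the 1.55-fold change nearly so. Both are therefore estimates and not minimum folds. The fits were tested on simulated data.

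The text names all 8 members, their 3 nearest genes, and per list the genes that passed (at most 3 of smallest p) or otherwise that of smallest p, or some of these where many passed; 1 of the nearest genes is not reported here. The members and lists were chosen with earlier results of these data known. Alternatives were other background corrections, normalizations, filters, probe rules and dye terms, each condition alone, array weights, the replicate number as a block and leaving out arrays. Same-numbered arrays of both conditions had correlations of -0.37 and -0.29 between their deviations from the condition means, which decides nothing: with 2 differentiating arrays their deviations mirror each other, and same-numbered arrays carry opposite dyes. The labels do not say that a number marks a shared culture or day, so the arrays were not treated as paired.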

Additional observations from a re-analysis of the deposited data

Results flagged for a closer look

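The KO effect of Dcx pointed in opposite directions in both conditions: its log2 KO over WT ratio was negative on both differentiating arrays and positive on all 4 proliferating arrays. The difference, differentiating minus proliferating, was -2.89 and did not pass limma's test over all genes (adjusted p = 0.155).

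Gap43 was also positive on all 4 proliferating arrays. In differentiating cells its ratios of -0.05 and -0.34 were small and its KO and WT ranges overlapped, so no opposite effect was seen there. Its difference of -1.72 did not pass limma's test either (adjusted p = 0.151).

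The KO signal of Stmn2 on proliferating replicate 2, 6.01 on the log2 scale, lay apart from the other KO proliferating signals of 6.26 to 6.29. No proliferating channel of this probe was well above background, and chance flags about 1 in 20 groups in this way.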

How the results depend on the processing

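In proliferating cells 0 members passed with no filter on dim probes, with each condition fitted alone and without any 1 array (0 to 0), and 1 without proliferating replicates 3 and 4. In differentiating cells 5 members passed with array weights, where 1711 of 18062 genes passed, against 557 in the main fit. With any 1 proliferating array left out 3 passed. Tubb3, Map2 and Add2 each passed in 14 of 16 alternatives, all but the fits that leave 1 differentiating array. These alternatives are not all separate. The rule reaches 1 probe each of Tubb3 and Map2, so the mean of all probes leaves their ratios unchanged. The authors' table holds Agilent's ratios, so it is not separate from the processed signals. For the difference of KO effects 1 member passed with array weights (124 of all genes) and 2 without proliferating replicates 3 and 4 (37 of all genes). With any 1 proliferating array left out, no gene at all passed. With withdrawal, 0 to 4 passed in WT and 0 to 3 in KO cells without 1 array, and in KO cells 0 without the filter and 1 with the replicate number as a block. That block left the count at 1 in proliferating and 3 in differentiating cells, and whether the numbers pair the arrays could not be decided. Values that did not pass changed sign as follows. In proliferating cells, the ratio of Mapt was -1.08 to 0.16 without 1 array and 0.47 without proliferating replicates 3 and 4, and that of Stmn2 was -0.0183 to 0.0880 without 1 array, -0.0234 without replicates 3 and 4 and -0.0165 with median centring. The difference of Mapt was -0.45 to 0.79 without 1 array and -0.76 without replicates 3 and 4. In KO cells, the withdrawal change of Map2 was -0.29 to 0.27 without 1 array and 0.0103 without replicates 3 and 4, and that of Dpysl3 was -0.12 to 0.24 without 1 array and -0.0120 with quantile normalization. Over all genes, 482 passed in proliferating cells with Agilent's processed signals, 269 with the authors' value table, 101 without the filter and 0 with the condition alone, against 172. The causes were not tested. A slide block was not run, since each slide holds 1 condition.

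The number of arrays limits every value, with 2 in differentiating cells. Signal over background limits Stmn2 and the dim probes of Dcx and Add2, whose ratios were measured after a background correction with an offset. Stmn2 without either differentiating array was not tested, since its probe then fails the filter.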
